A study of Mus musculus with 10 samples.

Results

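The genes Sox2, Nanog, Pou5f1, Klf4, Esrrb, Tbx3, Myc and Prdm14 encode transcription regulators of the mouse embryonic stem cell, and the chromosome folding around these 8 loci was followed in 10 exo-Hi-C libraries. The loci were chosen by name and by 1 position each on the mm9 assembly, given to 10 kb: 34.55 Mb of chromosome 3 for Sox2, 122.66 Mb of chromosome 6 for Nanog, 35.64 Mb of chromosome 17 for Pou5f1, 55.54 Mb of chromosome 4 for Klf4, 87.78 Mb of chromosome 12 for Esrrb, 120.12 Mb of chromosome 5 for Tbx3, 61.82 Mb of chromosome 15 for Myc and 13.1 Mb of chromosome 1 for Prdm14. No measured value entered the rule for this choice, but the choice was made with earlier results of these data known. For each locus the topologically associating domain (TAD) holding the position, the TAD boundaries within 500 kb and the listed contact pairs with an end within 500 kb were taken. Within these windows lay 72 of the 27025 distinct boundaries of the genome and 84 of the 13957 distinct pairs.

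All libraries came from the line ES-E14TG2a, labelled as embryonic stem cells and grown without feeders on gelatin in serum with LIF and with inhibitors of GSK3b (CHIR99021) and MEK (PD0325901), conditions that all genotypes shared. The genotypes were WT, E1-KO, E2-KO and E3-KO, which lack the enhancer named E1, E2 or E3, and E1&E3-dKO, which lacks both E1 and E3, with 2 libraries each. The labels give no position for the enhancers, so their distance from the loci is not known here. They also do not say whether the libraries of a genotype came from separate clones or cultures. The p-values therefore cover the spread among these 10 samples and no more, and that spread may be technical. Exo-Hi-C adds a digestion of linear DNA after proximity ligation, and which of the enzyme mixes LRC and LIC each library received is not labelled. Hi-C measures DNA contacts, and the labelled cell type could not be checked against marker expression.

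Sox2, the POU factor encoded by Pou5f1 (Oct4) and the homeodomain protein Nanog form the centre of the regulatory network that keeps embryonic stem cells undifferentiated. Klf4, Esrrb, Tbx3 and Prdm14 act beside them and connect the network to LIF, to the inhibitors of the culture medium and to repression of lineage genes, while Myc drives growth and proliferation. Several of these genes are controlled by clusters of enhancers at a distance, which share a TAD, a stretch of chromosome that contacts itself more than its flanks, with the promoter. TADs end at boundaries, often occupied by CTCF and cohesin.

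The promoters of Sox2 and Nanog are shown because contact pairs listed in these data ended in the bins next to both gene positions. The sequences are the 250 bases before the transcription start from RefSeq on GRCm38.p6, chr3:34649745-34649994 for Sox2 and chr6:122707239-122707488 for the first of 2 listed starts of Nanog, both on the plus strand and not in the coordinates of the contact lists. Capitals mark matches on either strand to the octamer core ATGCAAA bound by POU factors, the core CATTGT of SOX factors and the GC box GGGCGG.
Sox2: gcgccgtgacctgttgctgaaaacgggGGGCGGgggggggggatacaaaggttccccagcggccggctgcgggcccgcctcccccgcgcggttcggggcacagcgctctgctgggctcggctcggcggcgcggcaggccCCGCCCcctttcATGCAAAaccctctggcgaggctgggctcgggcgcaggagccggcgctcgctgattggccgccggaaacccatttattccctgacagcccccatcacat
Nanog: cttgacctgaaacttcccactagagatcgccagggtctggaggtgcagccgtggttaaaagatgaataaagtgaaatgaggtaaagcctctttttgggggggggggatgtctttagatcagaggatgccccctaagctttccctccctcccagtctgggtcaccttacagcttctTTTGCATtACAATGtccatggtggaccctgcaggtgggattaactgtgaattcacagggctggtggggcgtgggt
In Nanog the octamer core, 75 to 69 bases before the start, was separated by 1 base from the SOX core, 67 to 62 bases before it, both on the minus strand. The Sox2 window held an octamer core 99 to 93 bases before the start and 2 GC boxes. Over all 32851 promoter windows of the table, 4.12% held the octamer core, 10.7% the SOX core and 32.7% the GC box. The core of the CTCF motif, CCANNAG followed directly by NNGGC, was found in 2.07% of all windows and in 0 of the 8 windows of the members. Promoters were matched for 5 of the 8 genes, Sox2, Nanog, Pou5f1, Klf4 and Esrrb. No window of Pou5f1, Klf4 or Esrrb held the octamer core. Pou5f1 had a GC box and a SOX core, Klf4 had GC boxes only, and Esrrb had no match to any of the motifs. These matches describe letters only.

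Lists from the 10 libraries differed in size, with 2715 to 7962 TADs and 466 to 6014 listed pairs. E2-KO replicate 1 had the most TADs, a median TAD of 90 kb and pairs of as few as 2 reads, so values of this library are given separately wherever it stands apart. Its median TAD score was 2.051, against 1.667 to 1.726 in the other libraries, of which WT replicate 1 had the lowest. The total number of reads per library is not known from these files. As a background, the same measures were taken at 5085 grid positions spaced 500 kb apart over the genome. A grid position lay inside a TAD in 39.9% to 46.2% of cases, depending on the library.

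At 4 of the 8 loci, Sox2, Nanog, Tbx3 and Prdm14, the same TAD, with both ends within 10 kb, was listed in 8 or more libraries. This was the case at 6.33% of grid positions. The positions of Nanog, Tbx3, Myc and Prdm14 lay inside a TAD in all 10 libraries, against 7.32% of grid positions. Pou5f1 and Esrrb had a TAD in 8 libraries each, Klf4 in 7 and Sox2 in 9. The median TAD over the loci measured 120 to 154.9 kb, depending on the library. At grid positions the median was 150 kb in E2-KO replicate 1 and 310 to 610 kb in the other libraries. In each library the median over the loci was the shorter, with 124.9 kb in E2-KO replicate 1. The grid was not matched to the loci for gene content, and no test of this difference was made.

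**Figure D1:**
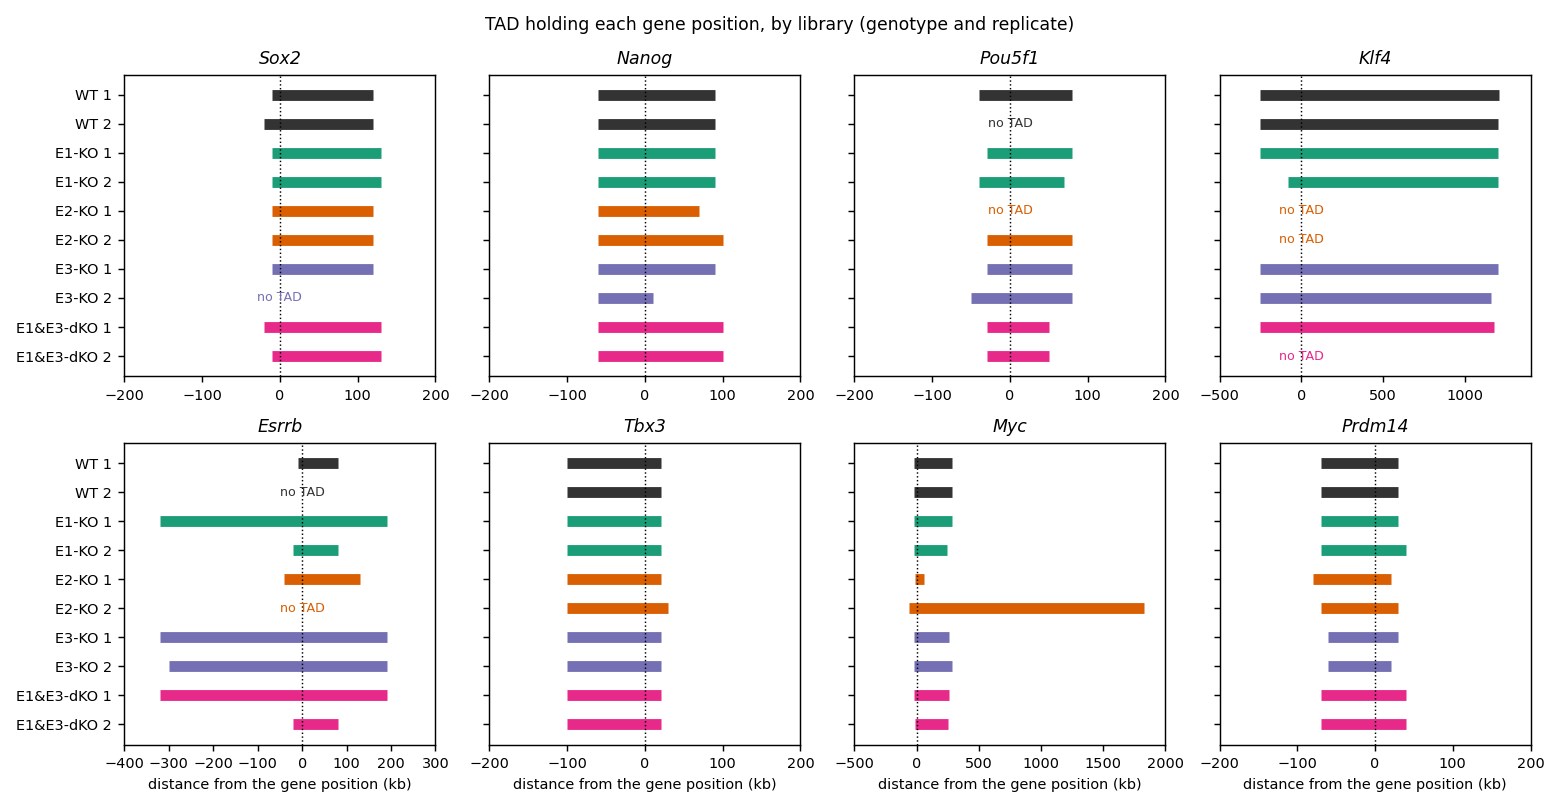
TAD holding each of the 8 gene positions (dotted line) in each library, drawn as a bar from its start to its end in kb from the position; colours are genotypes and the 8 panels differ in scale. Tbx3 and Prdm14 have nearly the same bar in all 10 libraries, whereas Esrrb bars measure 90 to 510 kb.

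Sox2, an HMG-box factor whose distal control region lies downstream of the gene, sat near the start of its TAD. The TAD ran from 34.54 to 34.67 Mb of chromosome 3 (chr3:34540000-34669998) in WT replicate 1 and from 34.53 to 34.67 Mb in WT replicate 2. Its length was 130 and 140 kb for WT, 140 kb for both E1-KO libraries, 130 kb for E2-KO in both and for replicate 1 of E3-KO, and 150 and 140 kb for E1&E3-dKO. The 9 TADs therefore differed by at most 20 kb, and WT overlapped with every knockout. In E3-KO replicate 2 no TAD held the position, and the nearest TAD ends lay 550 kb before and 1020 kb after it. The authors' score of the TAD was 2.18 and 2.17 for WT. It was 2.354 and 2.21 for E1-KO, 3.253 and 2.197 for E2-KO, 2.506 for E3-KO replicate 1, and 2.336 and 2.563 for E1&E3-dKO. All 7 knockout scores lay above both WT scores, with E2-KO replicate 1 the highest. The margin was small at the low end, with 2.197 in E2-KO replicate 2 against 2.18 in WT replicate 1. Scores were not scaled to the median score of each library, which was highest in E2-KO replicate 1 and lowest in WT replicate 1. They were not tested at this or any other locus. The share of other positions with such an order was not determined.

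Both ends of the Sox2 TAD were boundaries of 9 libraries, at 34.54 and 34.67 Mb. Only 1 other distinct boundary was listed within 500 kb, at 35.04 Mb in E2-KO replicate 1. A pair between the bins centred at 34.545 and 34.655 Mb, the first of them beside the gene position, was listed in WT replicate 1 with 28 reads (adjusted p in the authors' list 5.37e-11). E1-KO replicate 1 listed 34.555 with 34.665 Mb at 16 reads and 34.555 with 34.675 Mb at 18 reads. These pairs spanned 110 to 120 kb and joined the 2 ends of the TAD. E1-KO replicate 1 also listed 34.545 with 35.005 Mb, 460 kb apart, at 15 reads. The other 8 libraries listed no pair under 2 Mb with an end in this window.

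Nanog lies between Dppa3 and Slc2a3 in the gene order of GRCm38. Its TAD started at 122.6 Mb of chromosome 6 in all 10 libraries. It ended at 122.75 Mb in both WT libraries, both E1-KO libraries and E3-KO replicate 1, which gives 150 kb (chr6:122600000-122749998). In both E1&E3-dKO libraries and E2-KO replicate 2 it ended at 122.76 Mb. The other two libraries had shorter TADs, 130 kb in E2-KO replicate 1 and 70 kb in E3-KO replicate 2, where the end at 122.67 Mb fell 10 kb from the gene position. Scores ranged from 1.631 to 2.133. E1&E3-dKO had 1.954 and 2.133, above the WT values of 1.804 and 1.815, and E1-KO had 1.738 and 1.773, below them. E2-KO, with 1.942 and 1.757, and E3-KO, with 1.882 and 1.631, had 1 library on each side of WT.

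Within 500 kb of Nanog the boundary at 122.6 Mb was found in 10 libraries, that at 122.75 Mb in 9 and that at 122.35 Mb in 4. Nanog had the most short-range pairs of the 8 loci, with 7 distinct pairs under 2 Mb. The pair with the most libraries joined 122.615 Mb, next to the TAD start, to a bin from 122.665 to 122.685 Mb. It was listed with 38 reads in WT replicate 1, with 33, 30 and 30 reads for 3 adjacent bin pairs in E1-KO replicate 1 and with 15 reads in E1&E3-dKO replicate 2. WT replicate 1 joined 122.615 to 122.735 Mb with 27 reads, which spans nearly the whole TAD. E1-KO replicate 1 joined 122.695 to 122.715 Mb with 56 reads, the highest count near any of the loci. A pair between 122.615 and 122.645 Mb had 39 reads in E1-KO replicate 1 and 25 in E1-KO replicate 2, and no other library listed it.

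Pou5f1 lies at the edge of the H2-Q genes of the major histocompatibility complex, followed by Tcf19 and Cchcr1. WT replicate 1 had a TAD from 35.6 to 35.72 Mb of chromosome 17 (chr17:35600000-35719998), 120 kb long, and in WT replicate 2 no TAD held the position. The TAD measured 110 and 110 kb in E1-KO, 110 kb in E2-KO replicate 2, 110 and 130 kb in E3-KO, and 80 and 80 kb in E1&E3-dKO. In both E1&E3-dKO libraries the TAD ended at 35.69 Mb, against 35.71 or 35.72 Mb in the other 6 libraries that had one. The groups did not overlap, but with 1 WT library and 2 libraries without a TAD this length was not tested. The share of grid positions at which a genotype stands apart in this way was not determined. E2-KO replicate 1 had a boundary 80 kb after the position and none between it and 260 kb before.

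The number of boundaries within 500 kb of Pou5f1 was 4 in both WT libraries. E1-KO had 3 and 4, E2-KO 6 and 8, E3-KO 6 and 6, and E1&E3-dKO 4 and 5. E2-KO and E3-KO lay above all other genotypes. The means were 4 ± 0 in WT (SD, n = 2), 3.5 ± 0.707 in E1-KO (n = 2), 7 ± 1.41 in E2-KO (n = 2), 6 ± 0 in E3-KO (n = 2) and 4.5 ± 0.707 in E1&E3-dKO (n = 2). Libraries of a genotype were more alike than in most pairings of the 10 libraries (exact permutation p = 0.0381, one-sided, over 945 pairings). Adjusted over the 5093 positions tested, p was 1, and 3.34% of all positions passed unadjusted. Relative to the total boundaries of each library the exact permutation p was 0.823, and within 250 kb it was 0.619. Leaving out 1 library gave exact permutation p between 0.0127 and 0.114, above 0.05 without either WT library, E1-KO replicate 1, E2-KO replicate 2, either E3-KO library or E1&E3-dKO replicate 2. Within the 4 libraries titled w326, WT replicate 1 had 4 boundaries, E2-KO 6 and 8 and E3-KO replicate 2 had 6. Among the others WT replicate 2 had 4, E1-KO 3 and 4, E3-KO replicate 1 had 6 and E1&E3-dKO 4 and 5.

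Short pairs near Pou5f1 ended away from the gene. A pair from 35.305 or 35.315 to 35.365 or 35.375 Mb was listed with 23 reads in E1-KO replicate 1, with 15 and 19 reads for 2 bin pairs in E1-KO replicate 2 and with 10 reads in E1&E3-dKO replicate 2. WT replicate 1 listed 35.295 with 35.395 Mb at 16 reads. These pairs lay 245 kb or more before the gene position, close to boundaries at 35.29 and 35.38 Mb that 8 libraries had. The libraries without those boundaries were E1-KO replicate 1 and E1&E3-dKO replicate 2, which had one at 35.43 Mb instead. The boundaries of the gene's own TAD, at 35.61 and 35.71 Mb, were found in 8 and 9 libraries.

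Prdm14, a PR-domain protein that represses lineage genes and DNA methylation machinery, had a TAD of about 100 kb in every library. It ran from 13.03 to 13.13 Mb of chromosome 1 in both WT libraries (chr1:13030000-13129998). Its length was 100 kb in both libraries of WT and of E2-KO, 100 and 110 kb for E1-KO, 90 and 80 kb for E3-KO, and 110 kb in both of E1&E3-dKO. The E3-KO libraries had the shortest TADs of all 10 and did not overlap with any other genotype, though by only 1 or 2 bins. How often a genotype stands apart in this way at other positions was not determined. The authors' scores followed the same order at the low end: 1.823 and 1.891 in E3-KO, against 2.238 and 2.133 for WT, 2.268 and 2.173 for E1-KO, 3.34 and 2.35 for E2-KO, and 2.065 and 2.414 for E1&E3-dKO.

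Lengths of the Prdm14 TAD were more alike within genotypes than in most pairings (exact permutation p = 0.0476, one-sided). Adjusted over the 376 positions with a TAD in all 10 libraries, p was 0.904, and 4.52% of those positions passed unadjusted. Divided by the median TAD of each library, the lengths gave an exact permutation p of 0.265. With single libraries left out, the exact permutation p ran from 0.00952 to 0.0857 and was above 0.05 without either library of WT, E2-KO or E1&E3-dKO. Boundaries at 12.83, 13.03 and 13.13 Mb were found in all 10 libraries, as was a further one 420 kb before the position. E2-KO libraries had 12 and 8 boundaries within 500 kb, against 4 and 4 for WT, 4 and 6 for E1-KO, 4 and 4 for E3-KO, and 4 and 7 for E1&E3-dKO. Among genotypes the exact permutation p for these counts was 0.127. The boundaries of E2-KO that neither WT library had lay after the gene position, the side of Ncoa2 and Tram1 in the gene order, except 1 at 12.91 Mb in replicate 1. The pair 13.045 with 13.125 Mb, which joins the ends of the TAD, was listed with 15 reads in WT replicate 1 and 17 in E1-KO replicate 1.

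Tbx3, a T-box repressor that sits before Tbx5 and Rbm19 in the gene order, had the same TAD, matched within 10 kb at both ends, in all 10 libraries, as did Prdm14. It ran from 120.02 to 120.14 Mb of chromosome 5 (chr5:120020000-120139998) in 9 libraries and to 120.15 Mb in E2-KO replicate 2. The gene position lay 20 kb from the TAD end in those 9. Scores were 2.125 and 2.589 for WT, 2.317 and 1.896 for E1-KO, 2.561 and 2.343 for E2-KO, 2.551 and 2.545 for E3-KO, and 2.616 and 2.92 for E1&E3-dKO, so that only E1&E3-dKO had both libraries above both of WT. 4 boundaries were in all 10 libraries, at 120.02, 120.14 and 120.21 Mb and 440 kb after the position. A pair from 120.025 or 120.035 to 120.125 Mb, the ends of the TAD, had 26 reads in E1-KO replicate 1, 23 in E3-KO replicate 1 and 10 in E1&E3-dKO replicate 2.

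Tbx3 also had the only distant pairs near the loci that recurred. The bins at 28.545 and 119.945 Mb, 91.4 Mb apart, were listed in WT replicate 2, E2-KO replicate 1 and E2-KO replicate 2 with 3 to 4 reads. Those at 30.855 and 120.145 Mb, 89.29 Mb apart, were listed in E1-KO replicate 2 and E2-KO replicate 1, also with 3 to 4 reads.

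**Figure D2:**
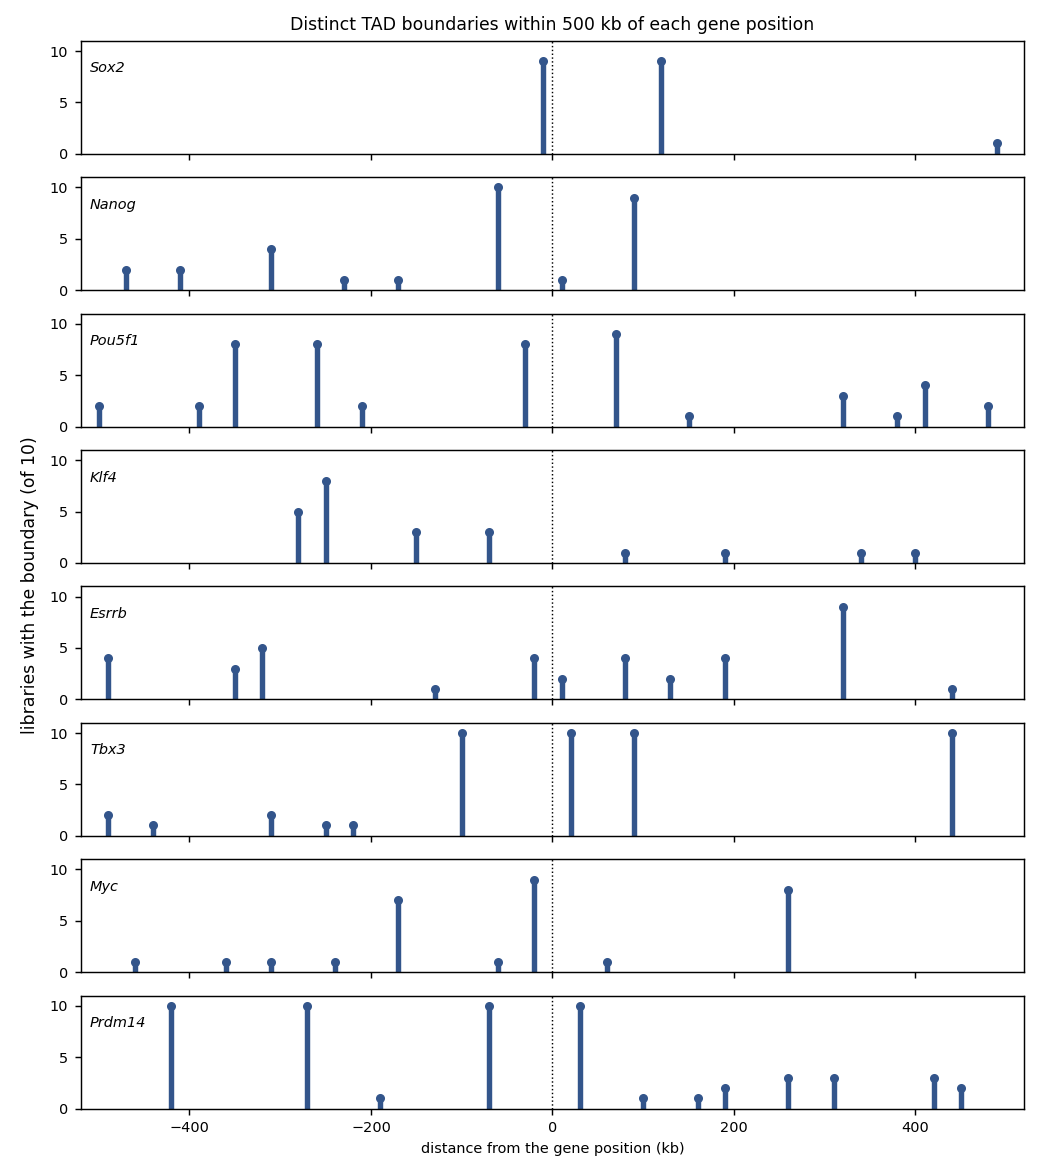
Distinct TAD boundaries within 500 kb of each gene position, placed by distance in kb (x axis), with the number of the 10 libraries that list each (y axis; matched within 25 kb). Tbx3 and Prdm14 each have 4 boundaries found in all 10 libraries, Nanog has 1, and the other loci have none.

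Myc, a bHLH factor in a gene-poor region between A1bg and Gsdmc, lay 20 kb after the start of its TAD in 7 libraries. The TAD ran from 61.8 to 62.1 Mb of chromosome 15 in both WT libraries (chr15:61800000-62099998), 300 kb long. E1-KO had 300 and 260 kb, E3-KO 280 and 300 kb, and E1&E3-dKO 280 and 260 kb. E2-KO departed in both directions, with 70 kb in replicate 1 and 1890 kb in replicate 2, so its mean of 980 ± 1290 kb (SD, n = 2) describes neither library. The boundary at 61.8 Mb was in 9 libraries, that at 62.08 Mb in 8 and that at 61.65 Mb in 7. Lengths gave exact permutation p = 0.962 between genotypes. WT replicate 1 listed 61.795 with 63.555 Mb, 1.76 Mb apart, with 6 reads, and E2-KO replicate 1 listed 61.735 with 63.365 Mb with 4 reads. The TAD of E2-KO replicate 2 ended beyond both, at 63.65 Mb.

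Klf4, a zinc finger factor that lies between Rad23b and Actl7b in the gene order, had the longest median TAD of the 8 loci. It ran from 55.29 to 56.75 Mb of chromosome 4 in WT replicate 1 (chr4:55290000-56749998), 1460 kb, and measured 1450 kb in WT replicate 2. Lengths were 1450 and 1280 kb in E1-KO, 1450 and 1410 kb in E3-KO, and 1430 kb in E1&E3-dKO replicate 1. No TAD held the position in either E2-KO library or in E1&E3-dKO replicate 2. These 3 libraries are among the 4 with the most TADs, and whether the size of the list bears on the missing TAD was not tested. The number of boundaries within 500 kb was 1 or 2 in 9 libraries, with 2 in both of E2-KO and 1 in both of E1-KO, and 9 in E1&E3-dKO replicate 2, so that 1 library stood apart. Klf4 was the only locus with no listed pair under 2 Mb. Its 11 pairs each came from 1 library, the one with the smallest p joining 55.075 and 134.115 Mb with 3 reads in E2-KO replicate 2.

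Esrrb, an orphan nuclear receptor whose gene lies between Gpatch2l and Vash1, had the same TAD, matched within 10 kb at both ends, in at most 3 libraries, the fewest of the 8 loci. WT replicate 1 placed the position in 90 kb, from 87.77 to 87.86 Mb of chromosome 12 (chr12:87770000-87859998), and WT replicate 2 in no TAD. A similar TAD of 100 kb was listed in E1-KO replicate 2 and E1&E3-dKO replicate 2. E1-KO replicate 1, E3-KO replicate 1 and E1&E3-dKO replicate 1 listed 510 kb from 87.46 to 87.97 Mb, and E3-KO replicate 2 listed 490 kb. E2-KO had 170 kb in replicate 1 and no TAD in replicate 2. E3-KO was thus the only genotype in which both libraries had the long form, while E1-KO and E1&E3-dKO had 1 of each. Scores were low, from 1.548 to 1.885, just above the lowest score listed of 1.5. The boundary at 88.1 Mb was in 9 libraries, those at 87.46 and 87.76 Mb in 5 and 4. The pair 88.135 with 88.265 or 88.275 Mb, 355 kb or more from the gene position, was listed in WT replicate 1 and E1-KO replicate 1 with 14 to 16 reads.

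Counts of boundaries near the loci are drawn beside the mean over grid positions. Over the 8 loci the mean was 3.25 in both WT libraries, 2.62 and 3.62 for E1-KO, 5.5 and 4.25 for E2-KO, 3.5 and 3.38 for E3-KO, and 3.25 and 4.62 for E1&E3-dKO. At grid positions it was 2.02 and 2.51, 1.93 and 2.64, 5.99 and 3.07, 2.3 and 3.54, and 2.4 and 3.64 in the same order. Averaged over its 2 libraries E2-KO had the highest value of a genotype in both, with replicate 1 the highest library. E2-KO replicate 2, at 4.25 and 3.07, lay below E1&E3-dKO replicate 2, at 4.62 and 3.64. On the grid it also lay below E3-KO replicate 2, at 3.54. E2-KO replicate 1 and E3-KO replicate 2 had fewer boundaries near the loci than on the grid, and the other 8 libraries had more.

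**Figure D3:**
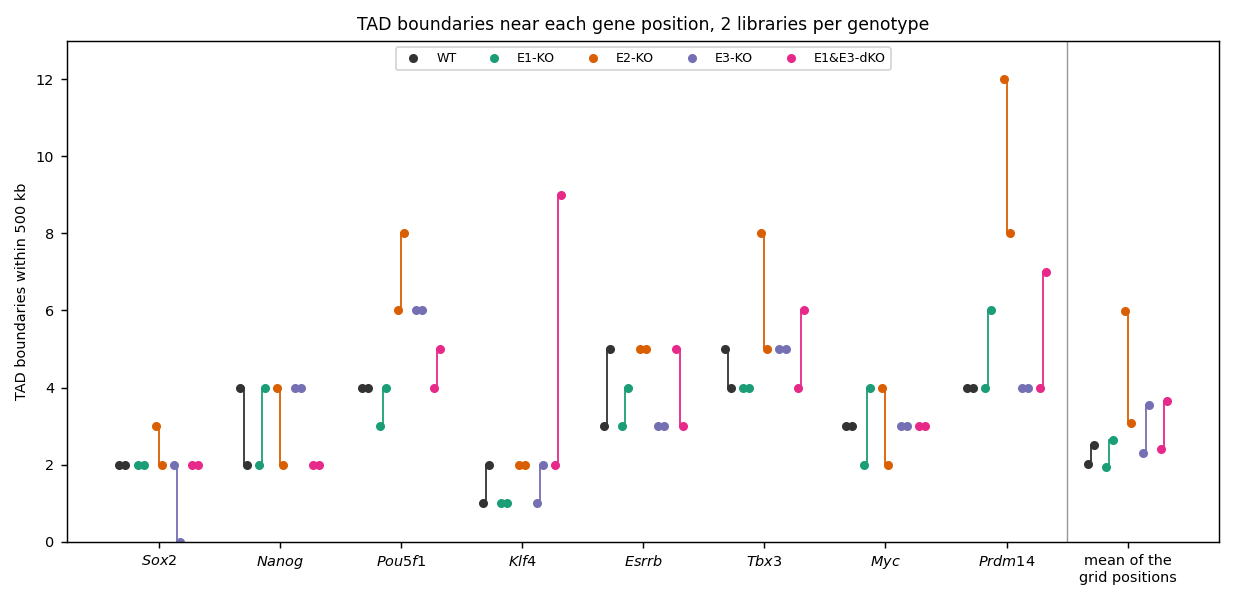
Number of TAD boundaries within 500 kb (y axis) of each gene position and, at the right, the mean over 5085 grid positions; each point is a library, coloured by genotype, and lines join the 2 libraries of a genotype. E2-KO replicate 1 has 12 boundaries at Prdm14 and E1&E3-dKO replicate 2 has 9 at Klf4.

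The question of whether the deletions altered these loci was put to 6 exact tests. Those of TAD length were run only at the 4 loci with a TAD in all libraries, the others at all 8. WT was compared with all 8 knockout libraries over the 45 choices of 2 libraries (two-sided, smallest p 0.0222). The exact permutation p was at least 0.822 for TAD length at the 4 loci with a TAD in all libraries, at least 0.489 for the number of boundaries at the 8 loci and at least 0.556 for the number of listed pairs. No locus passed, and over all positions tested 0.798%, 0.491% and 0.137% passed unadjusted in the same order. Between genotypes the number of listed pairs gave exact permutation p of at least 0.613 at the loci, and 1.57% of all positions passed. Scaled to the total pairs of each library, which ran from 466 to 6014, 1 locus passed unadjusted in each test of pairs: Tbx3 between genotypes (exact permutation p = 0.00952) and Myc for WT against knockouts (exact permutation p = 0.0444). Without E1&E3-dKO replicate 1 the unscaled pairs at Pou5f1 gave an exact permutation p of 0.0476 between genotypes. None of these passed after adjustment, and the share of all positions that passed unadjusted was 3.06% for the first, 3.95% for the second and 11.8% for the third. Adjusted p was at least 0.904 in each of the 6 tests at each locus to which it was applied, without scaling and with all libraries. A p that misses the threshold does not show that the loci folded alike. A single knockout set against WT cannot give an exact p below 0.333, and such comparisons rest on values alone.

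Of the 72 distinct boundaries near the loci, 20 were found in 8 or more libraries, which is 27.8% against 10.2% of all distinct boundaries. A boundary counted as lost when both WT libraries and neither library of a knockout had it, and as gained in the reverse case. All knockouts were set against the same WT libraries, so their counts are not independent. Of the 20 boundaries near the loci in both WT libraries, E1-KO lost 2, E2-KO lost 2, E3-KO lost 0 and E1&E3-dKO lost 0. Over the genome the losses were 11.0% in E1-KO, 11.0% in E2-KO, 8.03% in E3-KO and 9.51% in E1&E3-dKO. E1-KO gained 0 of its 17, E2-KO 5 of its 21, E3-KO 2 of its 22 and E1&E3-dKO 0 of its 20. The genome gave 9.94%, 33.7%, 12.7% and 16.7% in that order. No test set the counts near the loci against the genome. Without WT replicate 1 the losses were 7, 4, 5 and 3 of 26, with the single knockouts in numerical order and the double knockout last. The genome then gave 31.9%, 23.0%, 25.3% and 26.3%. Without WT replicate 2 the losses were 3, 4, 4 and 3 of 27. The genome then gave 22.1%, 18.2%, 17.4% and 18.3%. The gains without WT replicate 1 were 2 of 17, 6 of 21, 5 of 22 and 2 of 20. The genome then gave 19.0%, 42.5%, 22.4% and 25.8%. Without WT replicate 2 the gains were 0, 6, 3 and 0 of the same numbers, against 20.2%, 45.2%, 25.3% and 28.6%. With only the second library of each knockout, gains were 6 of 29, 9 of 34, 6 of 27 and 14 of 35. The genome then gave 35.4%, 42.4%, 49.0% and 51.7%. Losses were 3, 3 and 3 of 20 and 2 of 19, against 22.2%, 21.2%, 22.8% and 26.5%. With only the first, gains were 2 of 21, 23 of 41, 4 of 27 and 1 of 26. The genome then gave 20.2%, 72.2%, 23.1% and 30.9%. Losses were 4, 5, 1 and 0 of 20, against 22.0%, 38.9%, 17.2% and 22.0%. The counts therefore rested on requiring both libraries of each genotype.

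A boundary at 55.26 Mb near Klf4 was counted as lost in both E1-KO and E2-KO, but this count rests on the matching. WT replicate 1 had a single boundary there, which lay within 25 kb of 55.26 Mb and of the neighbouring boundary at 55.29 Mb and was counted at both. With each boundary of a library counted only at the nearest position, E1-KO and E2-KO each lost 1 of 19 near the loci. Both losses were at Myc. Over the genome E1-KO then lost 11.6% and E2-KO 12.3%. The other counts of losses and gains near the loci stayed as given. E1-KO lost 61.65 Mb and E2-KO lost 62.08 Mb at Myc. E2-KO replicate 1 and replicate 2 had TADs of 70 and 1890 kb there, and neither ended near 62.08 Mb. The gains of E2-KO were 3 near Prdm14, at 13.29, 13.36 and 13.41 Mb, and 1 each near Klf4, at 55.39 Mb, and Pou5f1, at 36.05 Mb. E3-KO gained 87.97 Mb, the end of the long Esrrb TAD, and 122.19 Mb near Nanog. The Esrrb boundary was also in E1-KO replicate 1 and E1&E3-dKO replicate 1. The 13.29 Mb and 122.19 Mb boundaries were in no library of another genotype.

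**Figure D4:**
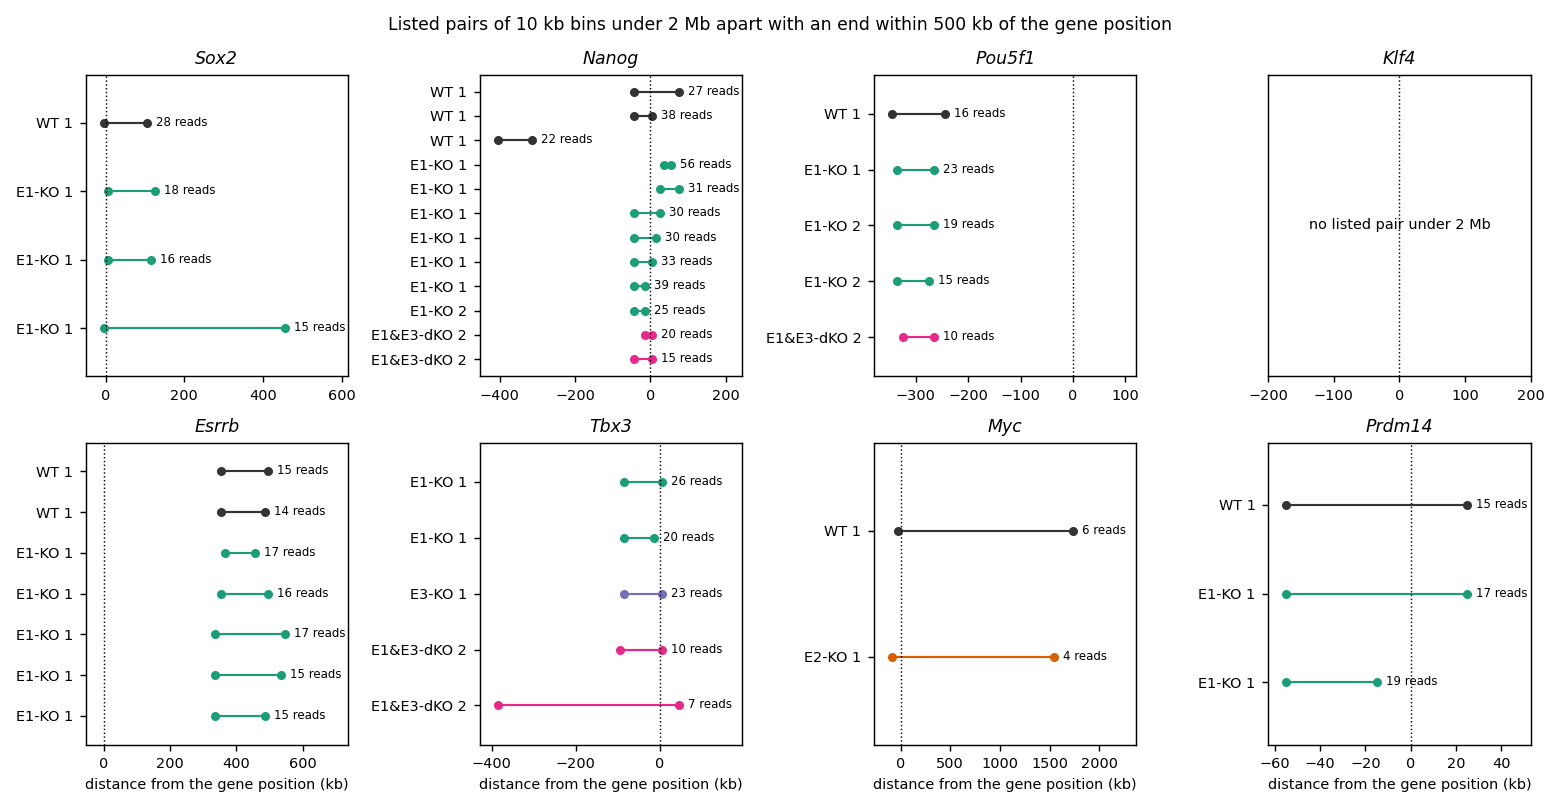
Listed pairs of 10 kb bins under 2 Mb apart with an end within 500 kb of each gene position, drawn as joined points at their distance in kb from it (dotted line), with the reads of each pair; rows are libraries and colours genotypes, and panels differ in scale. E1-KO replicate 1 and WT replicate 1 supply most of the rows, and Klf4 has none.

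Of the 84 distinct pairs near the loci, 22 spanned under 2 Mb, which is 26.2% against 13.1% of all distinct pairs. Pairs of 20 Mb and more were 54 of the 84, against 8828 of 13957 over the genome. Of the 84 near the loci, 9 were found in 2 or more libraries, or 10.7%, against 5.53% of all pairs. Pairs under 2 Mb rested on 4 to 56 reads and those from 2 Mb on 2 to 4 reads. The short ones came unevenly from the libraries: 19 of the 38 lines were in E1-KO replicate 1, 9 in WT replicate 1, 5 in E1&E3-dKO replicate 2, 3 in E1-KO replicate 2 and 1 each in E2-KO replicate 1 and E3-KO replicate 1. The other 4 libraries, WT replicate 2, E2-KO replicate 2, E3-KO replicate 2 and E1&E3-dKO replicate 1, had none. E1-KO replicate 1 had 787 pairs under 2 Mb over the genome and WT replicate 1 had 357, while E2-KO replicate 1 had 939 with 1 near the loci. Of the libraries with none near the loci, WT replicate 2 had 43 over the genome and E2-KO replicate 2 had 527. E3-KO replicate 2 had 287 and E1&E3-dKO replicate 1 had 108. The part of these list sizes in the differences between libraries was not tested, and a pair missing from a list was not shown to be absent.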

How the data were processed

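Each library had 2 deposited files: a TAD list and a list of contact pairs. Per the submitters' processing notes, the tools were HOMER and HiC-Pro 2.10.0 and the genome build was mm9; the tool behind each list is not given in the sources used here. The deposited TAD score has no stated unit and is at least 1.5. In the deposited pair lists, counts are unscaled reads per pair of 10 kb bins, each with a p-value; listed pairs have adjusted p-values up to 0.01. The deposited bias factor per bin is a ratio and was not used. WT replicate 2 lists each pair in both orientations (932 lines, 466 pairs), counted once.

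Where several TADs could hold a position the shortest was taken. TAD ends 1 bin or less apart within a library counted as 1 boundary; across libraries boundaries were matched within 25 kb, TADs and pairs when both ends lay within 1 bin. Genotypes were compared by an exact permutation over 945 pairings, with the sum of squared differences within pairs as the statistic, and WT against knockouts over 45 choices. P-values were adjusted by Benjamini-Hochberg over loci and grid together. TAD lengths were compared as log2 values. The tests were checked on simulated boundary counts with the same expected number in all 10 libraries, apart from the changes put in. This check does not cover lists of unequal size. Python 3.11.15, numpy 2.4.6 and pandas 2.3.3 were used. Named regions were, per locus, the 3 boundaries and the pair found in most libraries, the nearest lost or gained boundary, and any locus with an unadjusted exact p under 0.05; further ones were chosen after their values were seen. The loci and all lists were chosen with earlier results of these data known. Alternatives were other windows, matching distances, scalings and lists of equal size, blocks by replicate number or title, and leaving out each library. Gene order is from the RefSeq table of GRCm38, for names only.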

Additional observations from a re-analysis of the deposited data

How the results depend on the processing

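Adjusted p was not under 0.05 at any locus in the 103 combinations of test and alternative, and 16 of them had 1 locus under 0.05 unadjusted. The main tests did not pair libraries by replicate number. Deviations of same-numbered libraries correlated between -0.138 and 0.183 for boundaries and between -0.161 and 0.198 for listed pairs. Whether same-numbered libraries shared a batch was not tested. With the replicate block 0 loci passed, and the exact permutation p was 0.1 for the length of the Prdm14 TAD and 0.0667 for boundaries near Pou5f1. With the title prefix as a block 0 loci passed in the tests of WT against knockouts. Both E2-KO libraries but no E1-KO or E1&E3-dKO library had the prefix w326. These genotypes can therefore not be fully told apart from the prefix, and the tests between genotypes were not run with this block. At a boundary match of 15 kb E1&E3-dKO lost 2 of 20 and gained 2 of 19 boundaries, against 13.9% and 17.6% over the genome. At 45 kb E1-KO lost 1 of 19 and gained 1 of 18, against 9.33% and 8.52% over the genome. E2-KO lost 1 of 19 and gained 9 of 27, against 6.56% and 32.7%. E3-KO gained 4 of 24, against 11.9%. In a window of 1 Mb E1-KO gained 1 of 26, E2-KO 11 of 37 and E3-KO 4 of 31, against 9.94%, 33.7% and 12.7%. With the same number of TADs per library, 2715, E2-KO gained 1 of 13 and E3-KO 0 of 17, against 29.4% and 9.64%. With each boundary of a library counted at 1 position only, E1-KO lost 1 of 19 and E2-KO lost 1 of 19, against 11.6% and 12.3%. This alternative was chosen after seeing the data. The cause of the other shifts was not tested. Leaving out 1 library gave losses of 3 to 7 in E1-KO, 3 to 5 in E2-KO, 1 to 5 in E3-KO and 0 to 3 in E1&E3-dKO, and gains of 0 to 6, 6 to 23, 3 to 6 and 0 to 14. The genome shares beside each of these counts are given above. The highest gains came without E1-KO replicate 1, E2-KO replicate 2, E3-KO replicate 1 and E1&E3-dKO replicate 1. The same TAD in 8 or more libraries was found at 3 or 4 loci when 1 library was left out, Nanog being the one that dropped out, and at 6 with ends matched within 20 kb, an alternative chosen after seeing the data. Read depth per library is unknown, which limits what an absent TAD or pair can show.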
